A study of Mus musculus with 2 samples.

Results

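The 10 genes described here are Phf6, the target of the knockdown, and 9 other genes named for the plant homeodomain (PHD) finger: Phf2, Phf3, Phf8, Phf12, Phf14, Phf20, Phf20l1, Phf21a and Phf21b. They were found by gene ID, without its version, in the GENCODE M21 annotation of GRCm38 (mm10), and all 10 are among the 47643 genes listed in both count files. All 10 also passed the filter of at least 150 reads in at least 1 library, as did 10130 genes in all. The cells were cortical progenitors of wild-type mice, male by the labels, taken from E14 cortex, electroporated with a non-targeting control siRNA (siCtl) or with a pool of Phf6 siRNAs (siPhf6), and cultured for 5 days before mRNA-seq. Each group is 1 library of counts, with 12155311 gene reads under siCtl and 10561757 under siPhf6. The study's methods describe replicate electroporations for each siRNA, and 1 count file per group was used here. Whether a library holds 1 culture or a pool of cultures is not stated in the sources used here. No difference below therefore has a replicate check, and each compares these libraries rather than the conditions.

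A PHD finger is a small zinc-binding fold that in many nuclear proteins reads the tail of histone H3, often according to its methylation. PHF6 carries a pair of extended PHD fingers, binds the NuRD chromatin remodelling complex, and is mutated in Börjeson-Forssman-Lehmann syndrome, an X-linked intellectual disability. The other members work in different chromatin complexes. PHF2 and PHF8 are demethylases of the KDM7 family. PHF20 and PHF20L1 are related readers with Tudor domains, and PHF20 belongs to the NSL acetyltransferase complex. PHF21A, also called BHC80, is a subunit of the LSD1-CoREST complex, and PHF21B is its relative. PHF12 works with the Sin3 corepressor, PHF3 binds the tail of RNA polymerase II, and PHF14 is a further histone reader.

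An siRNA cuts transcripts that it matches along about its whole length, so stretches of sequence that Phf6 shares with the other members bear on the specificity of such cutting. The sequences of the siRNA pool are not given in the sources used here. Effects of an siRNA through shorter or partial matches were therefore not tested, and the counts below do not bear on them. No run of 19 bases of any Phf6 transcript in GENCODE M21 occurs in a transcript of the other 9 members. Shorter runs were sought only in the transcript of each gene with the longest coding sequence, and not in its other transcripts. Over the whole of these transcripts the longest runs in common with Phf6 were 11 to 14 bases, with 14 for Phf20l1 (3′ UTR of both genes) and 13 each for Phf14 and Phf21b. Between coding sequences alone they were 10 to 12 bases, the longest with Phf20. The windows around that run are shown because it is the longest between coding sequences, with the bases in common in capitals:
Phf6, GRCm38, exon 6, chrX:52940319-52940348, plus strand: ccttaaaggCTTGCCAGAAGAcagcaggtc
Phf20, GRCm38, exon 17, chr2:156304648-156304677, plus strand: caagaatgtCTTGCCAGAAGAgacgcctgc

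Some members are related in pairs, and these pairs are shown because reads could be shared between them. Of the aligned coding bases, 66.4% were identical between Phf2 and Phf8, 65.3% between Phf21a and Phf21b and 62.5% between Phf20 and Phf20l1. No pair had a run of 25 coding bases in common. The longest run was 14 bases in Phf21a and Phf21b, which is not shown. It was 20 bases in Phf2 and Phf8 and 16 bases in Phf20 and Phf20l1. The windows of Phf20 and Phf20l1 cross an exon junction, and their coordinates span the intron:
Phf2, GRCm38, exon 21, chr13:48804383-48804412, minus strand: cccagCCCATGGCCCCTGGAGTCTTtctca
Phf8, GRCm38, exon 21, chrX:151630409-151630438, plus strand: ccacaCCCATGGCCCCTGGAGTCTTcctca
Phf20, GRCm38, from exon 13, chr2:156294266-156296668, plus strand: catgattCAGTGTGAAGAGTGCCagtgctg
Phf20l1, GRCm38, from exon 16, chr15:66629972-66630886, plus strand: catgatcCAGTGTGAAGAGTGCCtatgctg

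Beyond the members, 176 of the 6960 distinct runs of 19 bases in the 5 Phf6 transcripts (2.53%) also occur in transcripts of 668 other genes. Of the 1077 runs in the coding sequence, 8 do, in Wdr17 (4 runs), C2cd6b (2 runs) and Tmcc3os (2 runs). Wdr17, which encodes a WD repeat protein, went from 223 reads in siCtl to 192 in siPhf6. Its log2 ratio, here always siPhf6 over siCtl, was -0.01 with a 95% counting interval from -0.30 to 0.27. C2cd6b (2 and 3 reads) and Tmcc3os (1 and 2 reads) were near 0 in both libraries. Of the 668 genes, 230 were kept, and 37 of these (16.1%) were called lower and 34 (14.8%) higher, with a median log2 ratio of 0.0041. A call here means an FDR under 0.01, by Benjamini-Hochberg adjustment of an exact two-sided binomial test of the reads over all kept genes, together with an absolute log2 ratio over 0.25. By this rule 25.9% of all kept genes were called, 12.4% lower and 13.4% higher.

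Phf6, on chromosome X from 52912266 to 52956943 on the plus strand, was at 117 RPM (reads scaled to a library of 1e+06 gene reads) in siCtl, from 1420 reads, and at 29.4 RPM in siPhf6, from 310 reads. The counting intervals, exact Poisson at 95%, run from 111 to 123 RPM and from 26.2 to 32.8 RPM, and do not overlap. The siPhf6 level was 25.2% of that of siCtl, a log2 ratio of -1.99 (95% counting interval -2.17 to -1.81), and Phf6 was called lower. Only 2 of the 10130 kept genes had a lower log2 ratio than Phf6, and 0.474% of kept genes were at least 2-fold lower, while 1.06% were at least 2-fold higher. In siCtl, 72.6% of kept genes were at or below the RPM of Phf6, and in siPhf6 23.7% were. By reads not divided by gene length, Phf6 thus went from the upper part of the kept genes to the lower part, and 310 reads of it remained.

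**Figure D1:**
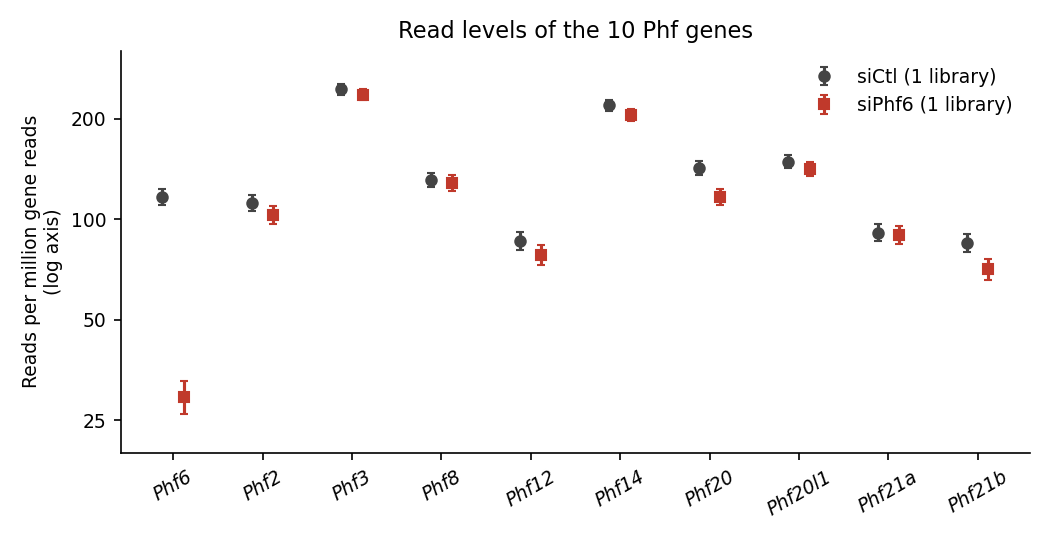
RPM (log axis) of the 10 Phf genes in the siCtl library (circles) and the siPhf6 library (squares), with exact 95% Poisson counting intervals as bars. Phf6 goes from 117 to 29.4 RPM, while each of the other 9 keeps at least 82.1% of its siCtl level.

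Among the 5 kept genes with the log2 ratio nearest to that of Phf6, over only these 2 libraries, were Htr1a, Fblim1, Pcdhb2 and Grm2. Htr1a, a serotonin receptor, stood at -1.98, and Fblim1, a filamin-binding adhesion protein, at -1.93. The clustered protocadherin Pcdhb2 was at -2.12 and the glutamate receptor Grm2 at -1.71. Their siPhf6 reads were 37, 60, 54 and 299, so that of these 4 only Grm2 rested on a number of reads like that of Phf6. Htr1a, Fblim1 and Pcdhb2 were kept only through siCtl, with 171, 267 and 275 reads there. Their low ratios are thus in part fixed by the filter.

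The remaining 9 members moved far less than Phf6. Their log2 ratios lay between -0.29 and -0.02 with a median of -0.10, against a median of 0.0096 over all kept genes, and their summed level was 1263 RPM in siCtl and 1171 RPM in siPhf6, or 92.8%. All 9 ratios were below 0, as were 48.2% of those of all kept genes, and for 5 of the 9 the counting interval lay below 0 as well. Of the 9, 2 (22.2%) were called lower and 0 higher, beside 12.4% and 13.4% of all kept genes. The ratio of 7 of the 9 lay between -0.25 and 0.25, as did 68.8% of all kept genes. All 9 lay within the middle 90% of kept genes, which ran from -0.50 to 0.53. When a trend of the log2 ratio on exon length was subtracted, 6 of the 9 were below 0 and the range was -0.26 to 0.013. The exons of 7 of these members are longer than the median of the kept genes, 5087 bases, and those of Phf12 (4909 bases) and Phf21b (4264 bases) are shorter.

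**Figure D2:**
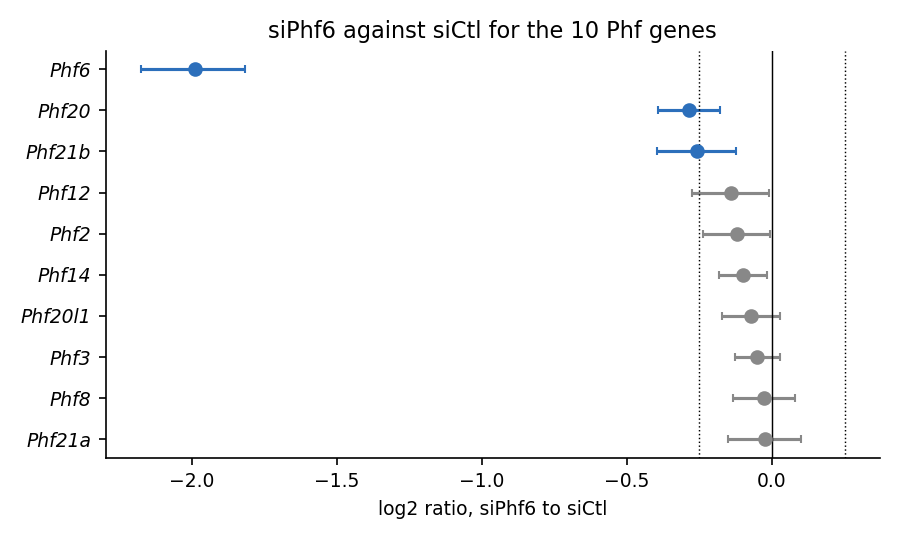
Log2 ratio of siPhf6 to siCtl for the 10 Phf genes, with 95% counting intervals as bars; dotted lines mark -0.25 and 0.25, and blue points are called lower. Phf6 stands at -1.99, Phf20 at -0.29 and Phf21b at -0.26, and the other 7 lie between -0.14 and -0.02.

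Phf20 and Phf21b, both of which have a close relative among the members, were the ones called lower beside Phf6. Phf20, on chromosome 2 from 156196466 to 156309952, had 1734 reads in siCtl and 1236 in siPhf6, or 143 and 117 RPM. This is 82.1% of the siCtl level, a log2 ratio of -0.29 (-0.39 to -0.18). Its relative Phf20l1, on chromosome 15, had 1811 and 1496 reads, or 149 and 142 RPM, which put its ratio at -0.07 (-0.17 to 0.03), not called. Phf20 thus took 48.9% of the reads of the pair in siCtl (exact binomial 95% interval 47.3 to 50.6) and 45.2% in siPhf6 (43.4 to 47.1), intervals that do not overlap. A pseudogene, Phf20-ps on chromosome 7, has a stretch of 249 bases identical to Phf20 and held 73 and 46 reads, so a few reads of Phf20 may have been counted there. With its reads added, the ratio of Phf20 was -0.29 (-0.40 to -0.19).

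Phf21b lies on the minus strand of chromosome 15, from 84785381 to 84856049. It had 1032 reads under siCtl and 749 under siPhf6, or 84.9 and 70.9 RPM. This is 83.6% of the siCtl level, a log2 ratio of -0.26 (-0.40 to -0.12), which is close to the limit of 0.25. Phf21a, on chromosome 2, had 1110 and 948 reads, or 91.3 and 89.8 RPM, with a ratio of -0.02 (-0.15 to 0.10). Phf21b took 48.2% of the reads of this pair in siCtl (46.0 to 50.3) and 44.1% in siPhf6 (41.8 to 46.5). These intervals overlap slightly, which is no test of the difference. The shift was similar in size to that of the Phf20 share (48.9% to 45.2%), and neither shift was tested. The calls of Phf20 and Phf21b were lost when a coefficient of variation of 0.1 between cultures was assumed in edgeR's exact test, and when at least a 1.5-fold difference was required. That of Phf20 was also lost with the length trend subtracted, at -0.25. Phf6 kept its call under every one of these settings.

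The demethylases Phf2 and Phf8 were not called. Phf2, on chromosome 13, had 1364 and 1089 reads (112 and 103 RPM), a log2 ratio of -0.12 (-0.24 to -0.0061). Phf8, the other X-linked member, had 1593 and 1358 reads (131 and 129 RPM), a ratio of -0.03 (-0.13 to 0.08). Phf8 was 53.9% of the reads of the pair in siCtl (52.1 to 55.7) and 55.5% in siPhf6 (53.5 to 57.5), a difference within counting error. Their relative Kdm7a behaved differently in these libraries. Kdm7a, the remaining member of the KDM7 family, had 523 reads in siCtl and 886 in siPhf6 (43.0 and 83.9 RPM) and was called higher at 0.96 (0.81 to 1.12). Arid5b, the DNA-binding partner of PHF2, had 925 and 684 reads and was not called, at -0.23 (-0.38 to -0.09).

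The members without a close relative in the set were not called either. Phf3 had the most reads of the 10, 2979 in siCtl and 2499 in siPhf6 (245 and 237 RPM), and a ratio of -0.05 (-0.13 to 0.03). Phf14 followed with 2674 and 2169 reads (220 and 205 RPM) and -0.10 (-0.18 to -0.02). Phf12 had 1050 and 827 reads (86.4 and 78.3 RPM), with the lowest ratio of the uncalled members at -0.14 (-0.27 to -0.0088). Of the exon bases of Phf12, 10.8% overlap Dhrs13os on the opposite strand. That gene had 24 and 23 reads, and the kit does not mark strand. Besides Phf12, only Phf2 overlaps another gene in its exons, by 8 bases with the antisense gene Phf2os1.

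**Figure D3:**
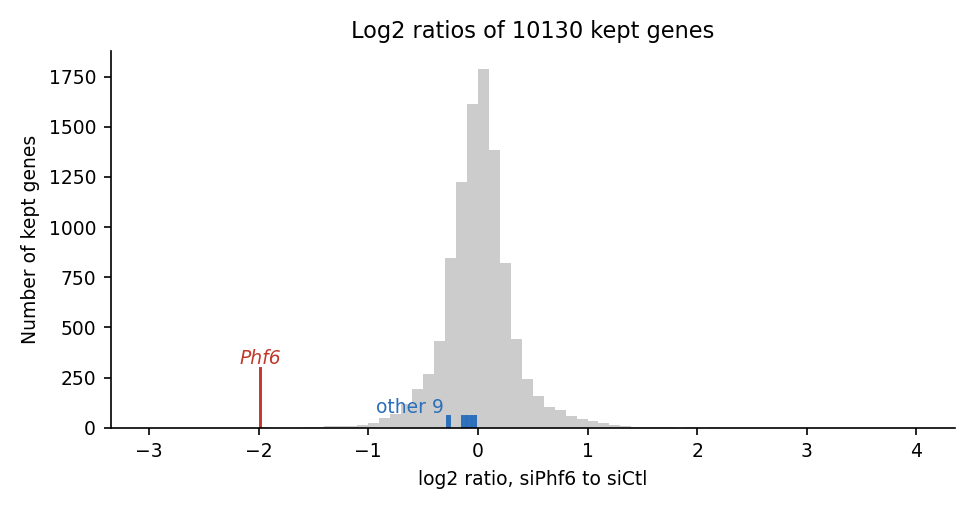
Number of kept genes (vertical axis) by log2 ratio of siPhf6 to siCtl in bins of the horizontal axis, with Phf6 marked in red and the other 9 Phf genes as blue ticks. Phf6 lies in the far left tail at -1.99, with 2 of 10130 genes below it, and the 9 ticks lie between -0.29 and -0.02.

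Per length, the 10 genes spanned a range in siCtl from 8.54 RPM per kilobase of annotated exons for Phf20l1 to 20.4 for Phf2. In siCtl the order from the top was Phf2 (20.4), Phf21b (19.9), Phf12 (17.6), Phf3 (17.3), Phf6 (16.8), Phf20 (14.3), Phf8 (14.1), Phf14 (13.7), Phf21a (10.7) and Phf20l1. The counting intervals overlap between Phf2 and Phf21b, among Phf12, Phf3 and Phf6, and among Phf20, Phf8 and Phf14, so the order within these groups is not resolved. In siPhf6 Phf6 was last at 4.23 RPM per kilobase (3.77 to 4.72), below Phf20l1 at 8.12 (7.71 to 8.54). This order depends on the length used. With the longest coding transcript of each gene as its length, the siCtl range was 14.4 to 55.2 RPM per kilobase. Phf14 then ranked 1 instead of 8 (55.2), Phf3 2 instead of 4 (32.4) and Phf6 3 instead of 5 (26.9), while Phf2 ranked 7 instead of 1 (20.4) and Phf12 8 instead of 3 (19.6). In siPhf6 Phf6 ranked 10 with either length.

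**Figure D4:**
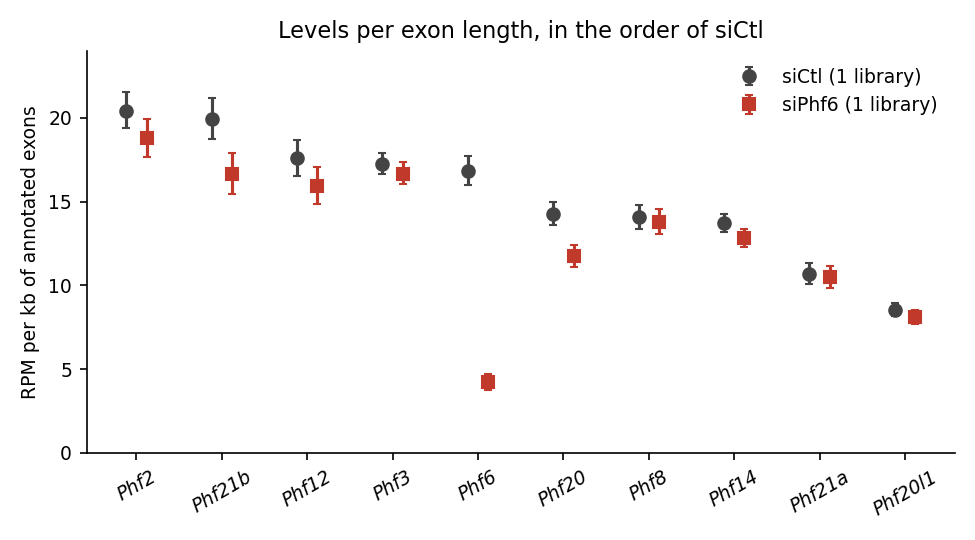
RPM per kilobase of annotated exons (vertical axis, from 0) for the 10 Phf genes in the order of their siCtl level, with siCtl as circles, siPhf6 as squares and 95% Poisson counting intervals as bars. Phf6 goes from 16.8, the fifth level, to 4.23, the lowest.

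As a share of the reads of all 10 members, Phf6 took 8.47% in siCtl (1420 of 16767 reads, exact binomial 95% interval 8.05 to 8.90) and 2.44% in siPhf6 (310 of 12681 reads, 2.18 to 2.73).

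Around the Phf6 locus few genes passed the read filter. Of 33 other genes annotated wholly within 500 kb, 2 were kept, Hprt and Mospd1. Hprt, which encodes a purine salvage enzyme and starts 31.2 kb beyond the end of Phf6, had 843 reads in siCtl and 904 in siPhf6 and was called higher at 0.30 (0.17 to 0.44). Mospd1, 388 kb away, had 279 and 263 reads and was not called at 0.12 (-0.13 to 0.37). The remaining 31 genes, 14 of them miRNA genes, had at most 127 reads in either library.

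Other genes named Phf showed no common direction. Of 12 such genes 6 were kept, and 1 was called higher and 1 lower. Phf10, a subunit of the PBAF chromatin remodelling complex, had 1859 and 2185 reads (153 and 207 RPM), with a log2 ratio of 0.44 (0.35 to 0.53). Phf24 had 1347 and 828 reads (111 and 78.4 RPM), at -0.50 (-0.63 to -0.37). Not called were Phf1, an accessory subunit of polycomb repressive complex 2, at -0.24 (-0.43 to -0.06), the splicing factor Phf5a at -0.04 (-0.23 to 0.16), the histone reader Phf13 at -0.04 (-0.21 to 0.13) and Phf23 at 0.16 (0.0051 to 0.32). Of the 6 that were not kept, Phf7 had 93 and 45 reads, Phf19 had 8 and 17, and the Phf11 genes had 0 to 17.

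Among 72 further genes of PHD finger proteins, 64 were kept, with 8 called higher, 9 lower and 47 not called, a median log2 ratio of -0.06. Together with the other Phf genes, 19 of 70 were called (27.1%), near the 25.9% of all kept genes. The largest increases were in Kdm7a and in Jade1, a subunit of HBO1 acetyltransferase complexes, which had 650 and 1079 reads (0.93, 0.79 to 1.08). They were followed by Pygo1, a Wnt pathway coactivator (0.50, 0.35 to 0.66), the chromatin remodelling subunit Baz1a (0.45, 0.15 to 0.76) and Ing2, which binds methylated histone H3 (0.40, 0.13 to 0.66). The largest decreases were in the histone acetyltransferase Kat6a, with 3740 and 2022 reads (-0.68, -0.76 to -0.61), and in Baz2b (-0.49, -0.62 to -0.37). Cxxc1, which recruits a histone methyltransferase to CpG islands (-0.39, -0.54 to -0.25), the Integrator subunit Ints12 (-0.38, -0.63 to -0.14) and Kmt2e (-0.37, -0.44 to -0.29) came next.

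**Figure D5:**
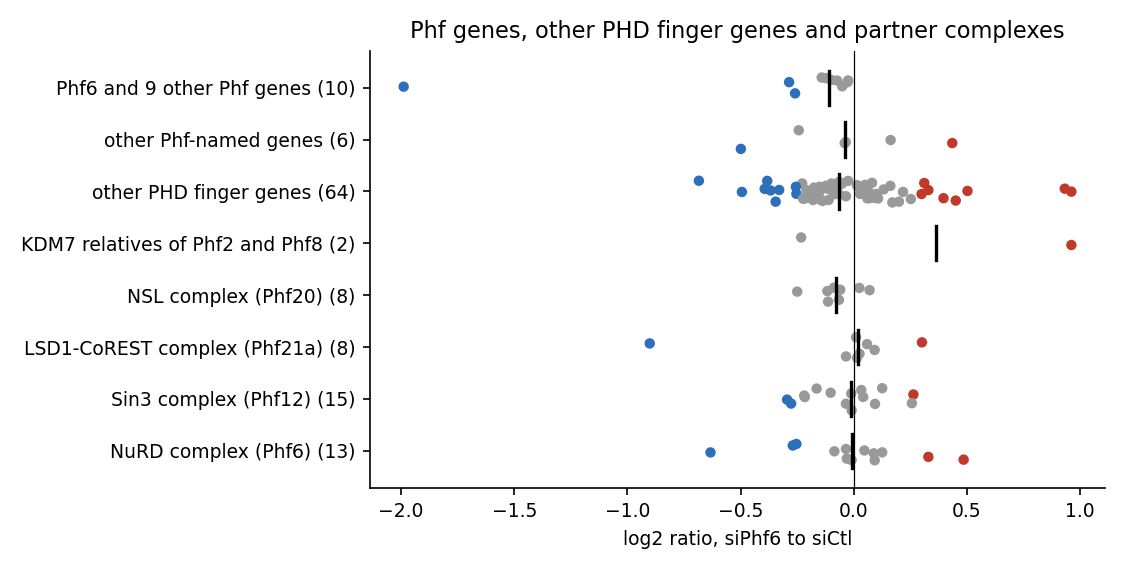
The kept genes of each list by their log2 ratio, siPhf6 over siCtl, along the horizontal axis, with the number of genes in brackets. Red points are called higher, blue lower and grey not called, and black bars are medians. Phf6 is the leftmost point at -1.99; Kdm7a is shown at 0.96 in both lists that hold it.

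The partner complexes of the members were mostly not called, and the lists overlap, since Hdac2, Rbbp4, Rbbp7 and others stand in more than one. None of the 8 kept NSL genes, the complex of PHF20, was called under the main scaling, with a median of -0.08. Hcfc1, the one with the most reads, had 4221 and 3383 (-0.12, -0.18 to -0.05), and Wdr5, at -0.25 (-0.37 to -0.13), was called lower under each of the other scalings tried. Of 8 kept LSD1-CoREST genes, the complex of PHF21A, 2 were called, among them the corepressor Rcor1, which was higher (0.30, 0.16 to 0.45). Zmym2, with the most reads there (2509 and 2196), stood at 0.01 (-0.07 to 0.09), and the demethylase Kdm1a, which is LSD1 itself, at 0.01 (-0.08 to 0.11).

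Of 15 kept Sin3 genes, the complex of PHF12, Gatad1 was called higher (0.26, 0.13 to 0.40), and Suds3 (-0.28, -0.41 to -0.14) and Arid4a (-0.29, -0.44 to -0.15) lower, while Arid4b, with the most reads (2148 and 1739), stood at -0.10 (-0.19 to -0.01). Of 13 kept NuRD genes, the complex that PHF6 binds, 2 were called higher and 3 lower, with a median of -0.0090. Chd4, its main remodelling ATPase (0.33, 0.26 to 0.40), and Mbd2, a reader of DNA methylation (0.49, 0.28 to 0.69), were higher. Gatad2b, with 2583 and 1447 reads (-0.63, -0.73 to -0.54), Mta3 (-0.27, -0.41 to -0.13) and Chd5, the neuronal ATPase and the one with the most reads at 5346 and 3897 (-0.25, -0.31 to -0.19), were lower. Rbbp4, the subunit that PHF6 contacts, had 1640 and 1416 reads and stood at -0.0090 (-0.11 to 0.09). The share called was 38.5% in this list, or 5 of 13, beside 25.9% of all kept genes, 2 of 8 for LSD1-CoREST and 3 of 15 for Sin3.

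The cells labelled as progenitors held abundant transcripts of neurons. The 8 postmitotic neuron markers checked summed to 2829 RPM in siCtl and 2907 in siPhf6, and none was called. Summed over all 9 radial glia markers, kept or not, the level was 349.7 RPM in siCtl and 483 in siPhf6, and Sox2 had 280 and 208 reads. Of the 5 that were kept, 4 were called higher and 0 lower. The 5 markers of dividing cells summed to 25.3 and 56.3 RPM. Mki67 (120 and 250 reads) and Top2a (136 and 275 reads) were kept only through siPhf6, where they were high, so their calls are in part fixed by the filter, while Ccnb1 had 10 and 16 reads, Cdk1 30 and 36 and Aurkb 11 and 18. The 5 intermediate progenitor markers summed to 113 and 155 RPM, with 2 kept. Nearly all of this sum was Btg2 (83.2 and 118.6 RPM) and Insm1 (25.6 and 32.6 RPM), both called higher. Of the rest, Eomes had 9 and 20 reads, Neurog1 0 and 0, and Neurog2 went down from 48 to 22. The sum is therefore no measure of the list as a whole. The 5 astrocyte markers summed to 290.2 and 416.5 RPM and the 6 oligodendrocyte lineage markers to 67.5 and 87.0 RPM, with 3 kept in each. Aqp4 (102 and 155 reads) and Olig2 (79 and 153 reads) were likewise kept only through siPhf6. Markers of microglia and of endothelial cells had at most 44 reads each, and their defining genes C1qa and Cldn5 had 0 in both libraries. In bulk RNA, fewer cells of a type and less RNA per cell cannot be told apart, and the part of these marker differences in the values of the Phf genes was not tested.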

How the data were processed

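The data are mRNA-seq of 1 siCtl and 1 siPhf6 library, made with the TruSeq RNA v2 kit. HISAT2 was the authors' aligner, with mm10 as genome. Duplicates were taken out with samtools, and the authors deposited read counts per gene from HTSeq on GENCODE release M9, with no normalization. Versions of these tools are not given in the sources used here, and the submitters' processing notes name deepTools 3.5.1. Reads in no gene (25.3% and 24.1%) and those assigned ambiguously (1.99% and 2.04%) were not part of the totals.

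A gene was kept if either library held 150 reads or more, as in the study's methods (10130 genes, 10114 of them matched to GENCODE M21). Log2 ratios used counts plus 1 read over the library's total of gene reads. Exact two-sided binomial tests compared the reads of the libraries (scipy 1.17.1), with Benjamini-Hochberg adjustment. Intervals are exact at 95% (Clopper-Pearson, or Poisson for levels) and cover counting error only, because each group is 1 library. Variation between cultures is not in them. The reads carry no molecular identifiers and may still repeat a molecule, which the intervals do not cover either. The test was also run on simulated counts that held counting error only. That run cannot show how the test behaves with variation between cultures. Alternatives used edgeR 4.0.16 (TMM scaling and an exact test in which a coefficient of variation of 0.1 was assumed) and DESeq2 1.42.0 (size factors). Exon lengths are unions over M21 transcripts. Coding identity is from global alignments (biopython 1.88). Identity and the longest runs in common used, for each gene, the transcript with the longest coding sequence.

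The members and gene lists were chosen with earlier results of these data known. Named were all members, all kept Phf genes, the called genes and the one with the most reads of each partner list, the 5 largest called increases and decreases of the other PHD finger genes, kept genes within 500 kb of Phf6 and the 5 genes nearest to it in log2 ratio. Wdr17, C2cd6b, Tmcc3os, Wdr5, Kdm1a, Rbbp4 and the unkept Phf genes were named, and matches of 19 bases counted, after values were seen. A called gene of the LSD1-CoREST list and a gene near Phf6 in log2 ratio are not reported here.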

Additional observations from a re-analysis of the deposited data

How the results depend on the processing

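No paired analysis was possible because each group has 1 library, and for the same reason no library could be left out. Scaling (TMM, DESeq2 size factors, or totals that leave out the mitochondrial and the 50 most abundant genes), read filters and a smaller added count changed no call of any of the 10 Phf genes. At a fold of at least 1.5, Phf20 (-0.29) and Phf21b (-0.26) were not called, leaving 1 member called lower; all kept genes gave 423 calls higher and 327 lower, and the calls were 0 for other Phf genes, 3 for other PHD finger genes, 1 for LSD1-CoREST, 0 for Sin3 and 1 for NuRD. With an assumed coefficient of variation of 0.1, Phf20 (-0.29) and Phf21b (-0.26) again lost their calls, with 1 member lower; all kept genes gave 165 higher and 86 lower, and the lists gave 0, 2, 1, 0 and 0 in the same order. With the length trend subtracted, Phf20 stood at -0.25 and was not called, and Phf3 (0.0027), Phf8 (0.0087) and Phf21a (0.013) turned positive, none of them called under either setting. There the medians were -0.0079 for other PHD finger genes, 0.024 for Sin3 and 0.028 for NuRD, with 3 NuRD calls. NSL had 1 call with that trend, 1 with TMM, 1 with DESeq2 size factors and 1 with the reduced totals. With at least 10 reads the medians were -0.050 for other PHD finger genes, 0.059 for LSD1-CoREST and 0.019 for NuRD; with any read the last pair were again 0.059 and 0.019. The rank of Phf6 per kilobase, by a length chosen after seeing the data, was 3 instead of 5 in siCtl. At this depth the counting interval of Mospd1 (279 and 263 reads) ran from -0.13 to 0.37, so smaller differences in genes of that abundance were not detectable.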
